A study of Vulpes lagopus with 12 samples.

Results

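Erythroid regulators and late reticulocyte genes are 10 genes of the last stages of red cell formation, read here in the blood RNA of the Arctic fox (Vulpes lagopus). The regulators were KLF1, GATA1, HEMGN and TAL1, and the late reticulocyte genes were STRADB, TRIM58, CA1, CA2, BPGM and BNIP3L. Members were chosen by name: every probe set that the array annotation assigns to 1 gene symbol, where that symbol is one of the 10. All 10 genes were measured, by 23 of 42860 tested probe sets, 6 for the 4 regulators and 17 for the 6 late genes. The whole array covered 15115 genes.

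A red cell is made from a nucleated precursor that fills with haemoglobin, expels its nucleus and enters the blood as a reticulocyte, which still holds RNA. The regulators are nuclear proteins that switch on globin, haem and membrane genes in the precursor. The late genes are known from transcripts that remain when the nucleus is gone, and their products clear mitochondria, remodel the cell and fit it for carrying oxygen and carbon dioxide.

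The series holds 12 arrays (Affymetrix Canine Genome 2.0, with probes designed against the dog): 11 fox samples and 1 array titled canine control. Per its design statement, the fox samples were examined for mercury and for polychlorinated biphenyls (PCBs), long-lived industrial chemicals, in blood cells. No exposure, sex, age or treatment of a single fox is in the labels, so the foxes form 1 group, numbered 1 to 11 in listing order. Organism, source and tissue labels of the control array read as those of the foxes, so among the labels only its title sets it apart. Marker lists of gut and of liver and kidney, given below, had higher mean levels on it than in any fox. Species, RNA source and array cannot be told apart in any difference between it and the foxes. The labels do not say that the 11 samples came from 11 animals, so p-values measure only the spread between these samples, which may be technical.

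Values are log2 signals per probe set after RMA (robust multi-array average), so 1 unit is a doubling, and levels of different probe sets are not comparable. Probe sets whose names end in s_at can match several transcripts. Array medians were 7.06 to 7.17 in the foxes and 6.86 on the control, and the median probe set was lower on the control by −0.46. Foxes 9, 10 and 11 stood apart in RNA controls. Their GAPDH signal at the 3′ end exceeded that in the middle of the transcript by 0.42 to 1.08, where foxes 1 to 8 had 2.56 to 3.19 and the control array −0.08. For actin they had 0.16 to 0.26, where foxes 1 to 8 had 2.14 to 5.21 and the control array 2.54. By actin the control array thus lay among foxes 1 to 8, but by GAPDH it did not. Fox 2 had the largest such difference for actin, 5.21 against at most 3.46 in any other fox, and the highest level of the hybridisation spike bioB, 11.85 against at most 10.20. No detection call was used. As a rough guide to low signal, 64 reporter control probe sets, which target sequences foreign to canids, had a 95th percentile of 7.96 as fox means and 7.02 on the control. The highest of them reached 14.66 and 14.92, so the set is no clean background. Of the 23 member probe sets, 15 had a fox mean not above 7.96.

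The regulators varied between foxes about as much as probe sets at large, with a median SD of 0.24 against 0.22. KLF1, the factor that binds CACCC boxes in the beta-globin promoter, lay between 8.05 and 8.63 with a median of 8.26, fox 2 being highest. The control array read 7.27, below all 11 foxes. Against the fox mean of 8.30 ± 0.20 (SD, n = 11) the control was lower by −1.03 (SE 0.21, adjusted p = 0.00163 by limma with Benjamini-Hochberg adjustment over all probe sets). In RNA from mixed cells, fewer cells of a type and less RNA per cell cannot be told apart, here and for every value that follows. With 1 array on one side and 11 on the other, the smallest p that an exact permutation test can reach is 0.0833, the value found for KLF1.

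GATA1, the zinc finger factor that activates most erythroid genes, was read by 3 probe sets, numbered here, as for every gene with several, from the highest mean over all arrays to the lowest. Probe set 1 lay between 8.78 in fox 10 and 9.83 in fox 2, with a median of 9.10, against 8.14 on the control. The control was below every fox and lower than the fox mean of 9.20 ± 0.28 (SD, n = 11) by −1.06 (SE 0.28, limma adjusted p = 0.00656). Probe set 2 went the same way. It lay between 7.51 in fox 10 and 8.31 in fox 2 with a median of 7.77, against 6.94 on the control, and the difference was −0.85 (SE 0.22, limma adjusted p = 0.00547). Probe set 3 of GATA1 ranked the foxes otherwise, from 6.76 in fox 11 to 8.01 in fox 5 with a median of 7.07. Its control value of 6.38 was below every fox, but the difference of −0.80 (SE 0.36) missed the threshold of 0.05 (limma adjusted p = 0.0717). Over foxes 1 to 8 probe sets 1 and 2 had a Pearson r of 0.86, while probe set 3 had r of −0.08 and −0.37 with them. In probe sets 2 and 3 neither the fox mean nor the control was above the 95th percentile of the reporter controls. Low signal thus limits the sizes of both differences, and only probe set 1 was above that bound.

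TAL1, the basic helix-loop-helix factor that works in a complex with GATA1, was the steadiest regulator. It lay between 6.49 and 6.78 with a median of 6.66, an SD of 0.10, and 96.7% of all probe sets had a larger SD over the foxes. The control read 5.65, below every fox, and differed from the fox mean of 6.65 by −0.99 (SE 0.13, limma adjusted p = 6.52e-05). Neither the fox mean nor the control value was above the 95th percentile of the reporter controls, so low signal limits the size of this difference. That percentile was itself lower on the control, at 7.02 against 7.96 as fox means.

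HEMGN, the haematopoietic nuclear protein hemogen, was the exception among the regulators. It lay between 5.34 in fox 9 and 6.21 in fox 5, with a median of 5.92, and the control read 9.17. The control was above every fox and higher than the fox mean of 5.85 ± 0.31 (SD, n = 11) by 3.32 (SE 0.31, limma adjusted p = 2.47e-06). The fox mean was not above the 95th percentile of the reporter controls, while the control value was. The size of this difference is therefore limited by low signal in the foxes. Foxes 9, 10 and 11 read 5.34, 5.36 and 5.56, all below the 5.68 to 6.21 of foxes 1 to 8. The GAPDH 3′ difference separates the same foxes, and its part in this was not tested. Over foxes 1 to 8 alone the SD of HEMGN was 0.17.

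**Figure D1:**
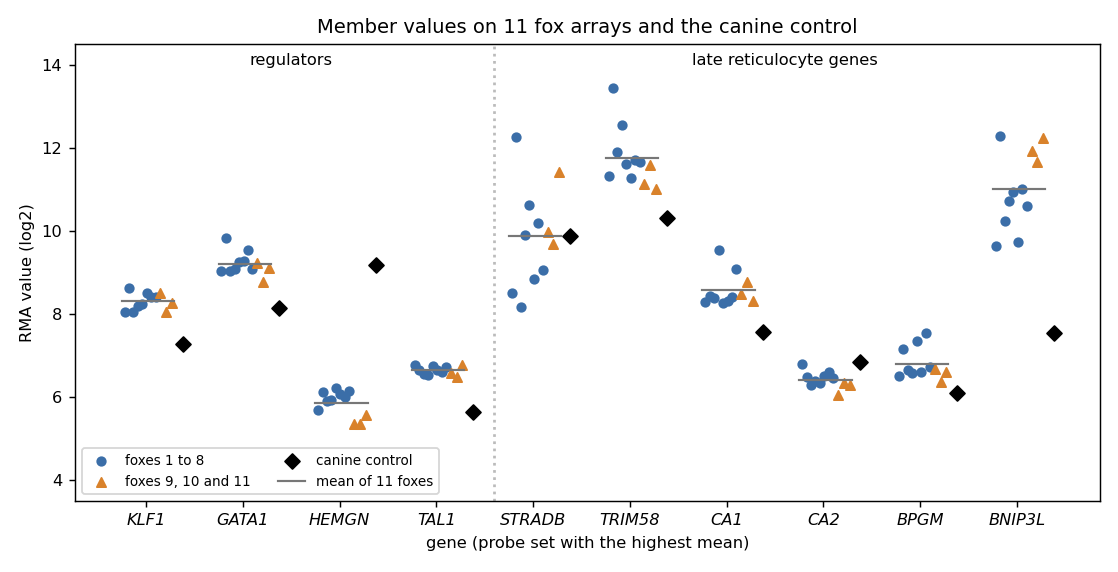
RMA value (log2) of the brightest probe set of each of the 10 genes, with 1 point per array: circles for foxes 1 to 8, triangles for foxes 9, 10 and 11, diamonds for the canine control, and a line at the mean of the 11 foxes. The regulators at the left have SDs of 0.10 to 0.31, and STRADB, TRIM58 and BNIP3L at the right have SDs of 1.23, 0.70 and 0.94.

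Among the late reticulocyte genes, STRADB, TRIM58 and BNIP3L differed most between foxes. BNIP3L, the mitochondrial outer membrane receptor that marks mitochondria of the reticulocyte for removal, lay between 9.63 in fox 1 and 12.29 in fox 2, with a median of 10.94, a range of 6.31-fold. The highest foxes were 2, 11, 9 and 10, at 12.29, 12.23, 11.93 and 11.67, and the other foxes lay at or below 11.01. The control read 7.53, below every fox. Against the fox mean of 11.00 ± 0.94 (SD, n = 11) this was −3.47 (SE 0.89, limma adjusted p = 0.00557), or 11.1-fold lower.

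STRADB, a pseudokinase related to the LKB1 activator STRADA, had the widest spread of all members. Its probe set 1 lay between 8.17 in fox 3 and 12.25 in fox 2, with a median of 9.90, a range of 16.9-fold. Only 1.31% of all probe sets had a larger SD over the foxes than its 1.23. The control, at 9.88, fell in the middle of the foxes, with a difference of 0.01 (SE 1.16, limma adjusted p = 0.997).

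The other 3 probe sets of STRADB gave smaller spreads. Probe set 4 lay between 6.82 in fox 10 and 9.23 in fox 5 with a median of 7.79, and the control at 6.52 was below every fox, but the difference of −1.27 (SE 0.73) was not called (limma adjusted p = 0.144). Probe set 3 lay between 8.17 in fox 10 and 9.22 in fox 5 with a median of 8.66, and the control at 7.70 was lower by −1.0 (SE 0.35, limma adjusted p = 0.0252). That call ended once arrays were centred on their medians (limma adjusted p = 0.0884). Probe set 2 of STRADB had a narrow range, from 9.12 to 9.57 with a median of 9.41 and a control value of 9.18 (limma adjusted p = 0.187). Over foxes 1 to 8 the 6 pairs of STRADB probe sets had Pearson r between 0.49 and 0.83.

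TRIM58, a ubiquitin ligase that acts on the motor protein dynein while the nucleus is expelled, was read by 4 probe sets that did not rank the foxes alike. Probe set 1 lay between 11.01 in fox 11 and 13.43 in fox 2, with a median of 11.62, and fox 4 followed fox 2 at 12.55. The control read 10.30, below every fox, and the difference of −1.45 (SE 0.66) was not called with all foxes (limma adjusted p = 0.074). Without fox 2 it was −1.28 and was called (limma adjusted p = 0.0217), and after a new quantile normalization it was −2.35 (limma adjusted p = 0.0336).

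Probe set 4 of TRIM58 lay between 5.79 in fox 6 and 8.76 in fox 7, with a median of 7.29, and the control at 4.36 was lower by −3.0 (SE 0.81, limma adjusted p = 0.00763). Probe set 3 lay between 6.68 in fox 1 and 8.04 in fox 9 with a median of 7.69, and the control at 5.29 was lower by −2.23 (SE 0.40, limma adjusted p = 6.85e-04). In both, all foxes were above the control, whose values and the fox means were not above the 95th percentile of the reporter controls, so low signal limits these sizes. Probe set 2 lay between 6.88 in fox 10 and 8.17 in fox 6 with a median of 7.79, and its difference of −1.04 missed the threshold (limma adjusted p = 0.0509). It was called without foxes 9, 10 and 11, at −1.25 (limma adjusted p = 0.00168), without any single one of them (limma adjusted p = 0.0198 to 0.04), and with limma's trend and robust settings (limma adjusted p = 0.0442). Over foxes 1 to 8 probe set 2 had r of −0.38 to −0.71 with the other TRIM58 probe sets, while probe sets 3 and 4 had r of 0.75 with each other.

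**Figure D2:**
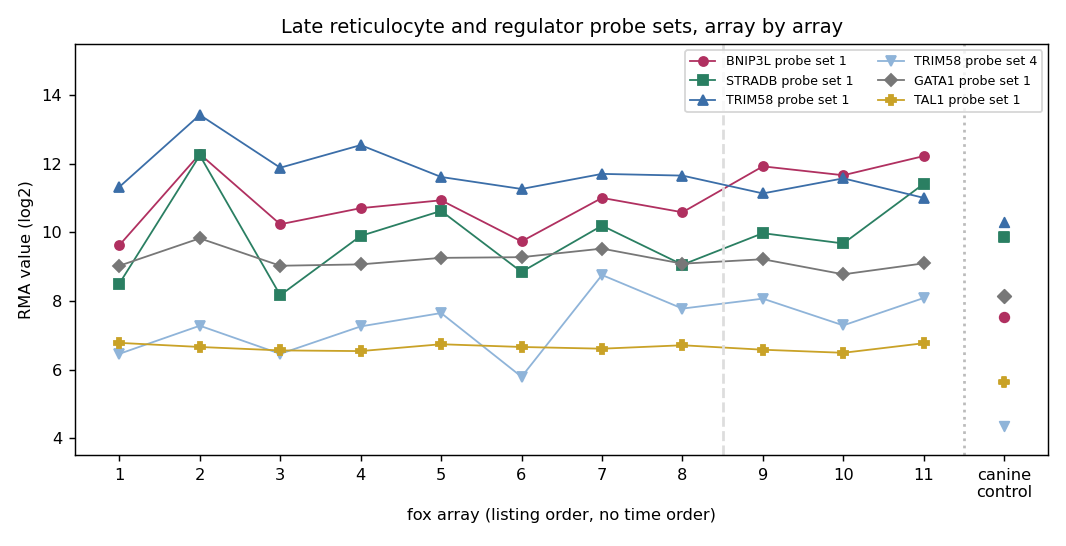
RMA value (log2) on each fox array and on the canine control for BNIP3L, STRADB, TRIM58 (probe sets 1 and 4), GATA1 and TAL1. The dashed line separates foxes 1 to 8 from 9, 10 and 11. BNIP3L and STRADB peak together in fox 2, at 12.29 and 12.25, while TAL1 stays between 6.49 and 6.78, and the array order is no time order.

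CA1 and CA2, the carbonic anhydrases that let red cells carry carbon dioxide as bicarbonate, went opposite ways on the control. CA1 probe set 1 lay between 8.27 and 9.54 with a median of 8.40, and only foxes 4 and 8, at 9.54 and 9.08, exceeded 9. The control read 7.56, below every fox, a difference of −1.01 (SE 0.39, limma adjusted p = 0.0409) that was not called after centring (limma adjusted p = 0.139). Probe set 3 of CA1 lay between 4.90 and 5.48 with a median of 5.34, and the control at 4.60 was lower by −0.67 (SE 0.21, limma adjusted p = 0.018), again not after centring (limma adjusted p = 0.122). Probe set 2, with foxes between 5.28 and 5.94 and a control value of 5.09, was not called (−0.41, limma adjusted p = 0.0938). In probe sets 2 and 3 neither the fox mean nor the control was above the 95th percentile of the reporter controls, so low signal limits both.

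All 3 CA2 probe sets read low in the foxes. Probe set 2 of CA2 lay between 4.07 and 4.4 with a median of 4.25, and read 11.10 on the control. Its fox values lay below the median of the reporter controls, 5.38 as fox means. The difference from the fox mean of 4.24 ± 0.10 (SD, n = 11) was 6.86 (SE 0.13, limma adjusted p = 7.52e-13), a size limited by the low signal in the foxes. Probe set 3 lay between 4.01 and 4.69 with a median of 4.30, against 5.30, a difference of 1.01 (SE 0.18, limma adjusted p = 5.94e-04). Probe set 1 lay between 6.04 and 6.80 with a median of 6.38, and the control at 6.85 was just above every fox. Its difference of 0.44 (SE 0.21) was not called as deposited (limma adjusted p = 0.0852) but was after centring, at 0.70 (limma adjusted p = 0.0143).

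CA2 is also a gene of gut, kidney and stomach epithelium. Of 11 measured gut epithelium markers, 8 (72.7%) were called higher, beside 18.5% of all genes, and 0 lower on the control, and their mean level was 9.77 there against 6.0 to 6.41 in the foxes. Of 11 liver and kidney markers, 7 were higher and 2 lower, with a mean level of 11.40 against 7.59 to 7.83. The part of these tissues in the CA2 and HEMGN values was not tested. In the Arctic fox annotation CA2, CA3, CA1 and CA13 lie in a row. CA3, the muscle enzyme, was not called (−0.18, limma adjusted p = 0.572), and CA13 was higher by 0.75 (limma adjusted p = 0.0231).

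BPGM, the enzyme that makes 2,3-bisphosphoglycerate and so lowers the oxygen affinity of haemoglobin in most mammals, differed little from the control. BPGM probe set 1 lay between 6.35 in fox 10 and 7.53 in fox 7 with a median of 6.65, and foxes 7, 5 and 2, at 7.53, 7.35 and 7.16, stood above the rest. The control at 6.09 was below every fox, with a difference of −0.70 (SE 0.37, limma adjusted p = 0.112). BPGM probe set 2 lay between 5.03 in fox 1 and 6.49 in fox 7 with a median of 5.63, and the control at 5.66 was among the foxes (0.02, limma adjusted p = 0.966). Both probe sets put fox 7 highest, and their r over foxes 1 to 8 was 0.85.

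Counted together, 10 of the 23 member probe sets (43.5%) were called lower on the control by limma, against 42.1% of all probe sets. Another 3 (13%) were called higher, against 18.9%. These shares are near the background, so the counts are no result about the members. The control lay below all 11 foxes in 16 (69.6%), against 55.1% of all probe sets, and above them in 4 (17.4%), against 21.9%. By 1 probe set per gene, 5 of 10 genes were lower and 1 higher, where 44.6% and 18.5% of all genes were. Regulators had 4 of 6 probe sets lower and 1 higher, with a median difference of −0.92, and late genes 6 of 17 lower and 2 higher, with a median of −0.70, beside −0.46 over all probe sets. With arrays centred on their medians 7 member probe sets were lower and 4 higher. The shares of all probe sets called after centring are not given here, so these counts are no result about the members either.

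**Figure D3:**
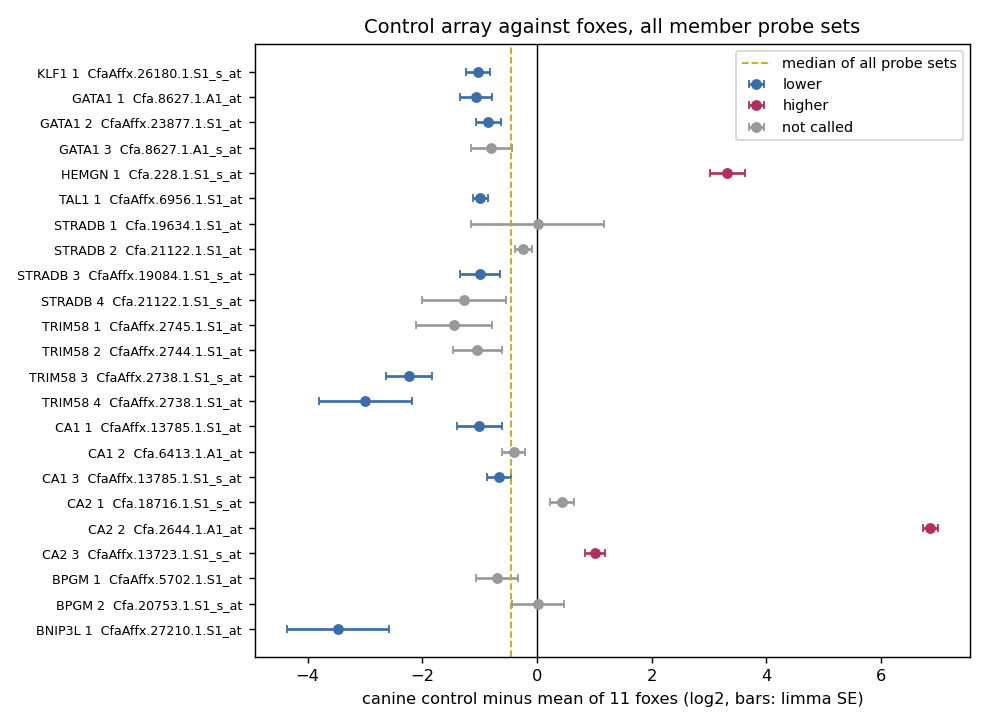
Canine control minus the mean of 11 foxes (log2) for all 23 member probe sets, with limma SEs as bars, coloured by the limma call. The dashed line marks the median of all probe sets at −0.46. HEMGN at 3.32 and CA2 at 6.86 lie far to the right, and BNIP3L at −3.47 farthest to the left.

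The classes also differed in their spread over the foxes, given here as a description with no test. Late genes had a median SD of 0.41 (17 probe sets, 0.10 to 1.23) and regulators of 0.24 (6 probe sets, 0.10 to 0.37), beside 0.22 over all probe sets. In 5 of 17 late probe sets and 0 of 6 regulator probe sets the SD was 0.5 or more, against 14.8% of all. Those 5 belong to STRADB, TRIM58 and BNIP3L. They are also the 5 whose SD is above 0.64, a bound that 10% of all probe sets pass. Probe sets of CA1, CA2 and BPGM had SDs of 0.10 to 0.47, so the wide spread is one of those 3 genes and not of all late genes. Fox 2 held the highest fox value in 8 of 23 member probe sets (34.8%), against 20.9% of all, and it is the fox with the largest actin 3′ difference, whose part was not tested. Foxes 9, 10 and 11 were all above foxes 1 to 8 in 0 of 23, against 12.7% of all, and all below them in 4 (17.4%), against 14.6%. The 4 were HEMGN, probe set 2 of TRIM58 and probe sets 2 and 3 of CA1.

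Whether members rose and fell together between foxes was asked within foxes 1 to 8, since foxes 9, 10 and 11 form a cluster of their own, too small for a value. The 45 pairs of genes had a median Pearson r of 0.21, 30 were positive, and 0 passed an adjusted p of 0.05 in exact permutation tests, Pearson or Spearman, with 7 at an unadjusted Pearson p under 0.05. The closest pair was STRADB and BNIP3L, with r = 0.93 (two-sided exact permutation p = 0.00164, adjusted p = 0.0737 over 45 pairs) and rho = 0.90 (exact permutation p = 0.00456, adjusted p = 0.205). Without foxes 2 and 3, the farthest from the median of STRADB, r was 0.90, and without fox 2 alone it was 0.81. With a gene's probe sets averaged in place of taking the brightest, 2 pairs passed (exact permutation adjusted p = 0.0357 for each). They were STRADB with BNIP3L (r = 0.90) and TRIM58 with BNIP3L (r = 0.87). The TRIM58 average pools probe sets that did not rank the foxes alike, and averaged values without fox 2 are not given here.

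Several other pairs rest on fox 2. TRIM58 and BNIP3L had r = 0.84 (exact permutation p = 0.0108, adjusted p = 0.137, rho 0.67), which was 0.54 without fox 2. STRADB and TRIM58 had r = 0.75 (exact permutation p = 0.0351, adjusted p = 0.264, rho 0.40), which was 0.30 without it. GATA1 had r = 0.85 with STRADB (exact permutation p = 0.00972, adjusted p = 0.137, rho 0.76) and 0.80 with BNIP3L (exact permutation p = 0.0181, adjusted p = 0.163, rho 0.74), and without fox 2 these were 0.61 and 0.46. KLF1 and GATA1, the closest regulators, had r = 0.80 (exact permutation p = 0.0122, adjusted p = 0.137, rho 0.86), and 0.64 without fox 2. GATA1 and BPGM were closer without it, at 0.82 against 0.69 (exact permutation p = 0.0479, adjusted p = 0.299, rho 0.71). With fox 2 kept, HEMGN, TAL1, CA1 and CA2 had no pair at an unadjusted p under 0.05. Without it, TAL1 and TRIM58 had r = −0.74 (unadjusted exact permutation p = 0.0383), against −0.38 with it. TRIM58 and CA1 had r = 0.79 (unadjusted exact permutation p = 0.0371), against 0.30 with it.

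**Figure D4:**
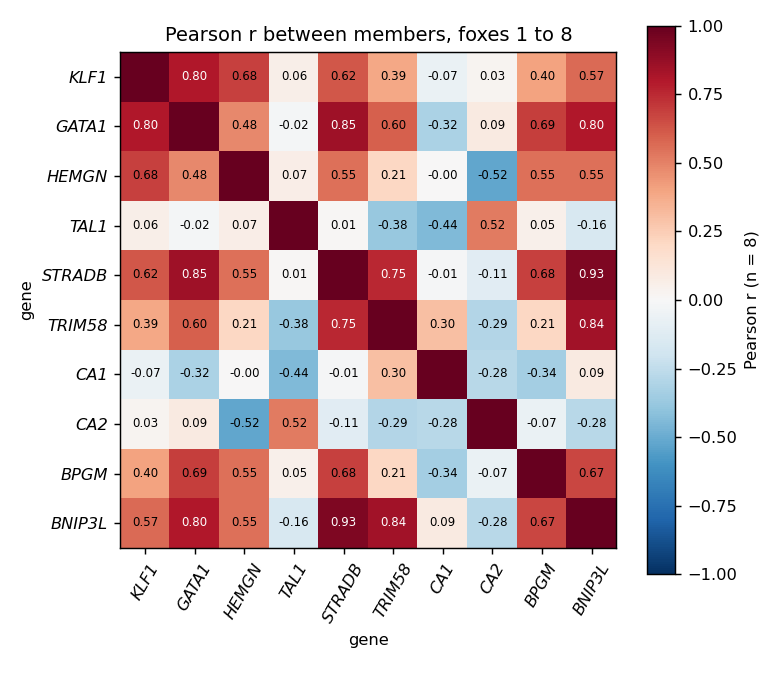
Pearson r between the brightest probe sets of the 10 genes over foxes 1 to 8 (n = 8), from −1 in blue to 1 in red. STRADB with BNIP3L is highest at 0.93, and of the 45 pairs 30 are positive.

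The erythroid haem synthesis enzyme ALAS2, chosen for this comparison after its values were seen, ran from 10.89 in fox 1 to 15.05 in fox 9 and was lower on the control by −6.66 (SE 1.45, limma adjusted p = 0.0022). Over foxes 1 to 8, BNIP3L had r = 0.91 with it (exact permutation p = 0.00176, adjusted p = 0.016 over the 10 members, rho 0.90) and STRADB r = 0.88 (exact permutation p = 0.0032, adjusted p = 0.016, rho 0.86). Without foxes 1 and 3, the farthest from the ALAS2 median, these were 0.95 and 0.81. Without fox 2 they were 0.86 and 0.80, and neither passed (exact permutation adjusted p = 0.171 and 0.243). GATA1 at 0.75, KLF1 at 0.71, TRIM58 at 0.68, and HEMGN and BPGM both at 0.65 did not pass (exact permutation adjusted p = 0.0983 to 0.116). CA1, CA2 and TAL1 had r of 0.27, −0.14 and −0.06. The control value of ALAS2, 6.57, was not above the 95th percentile of the reporter controls, so low signal there limits the size of −6.66.

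Other genes of the same stage were read from lists. Of 35 measured late reticulocyte and maturation genes, 10 (28.6%) were lower on the control, 2 (5.71%) higher and 23 not called, where 44.6% of all genes were lower and 18.5% higher. The median difference was −0.64 against −0.53 over all genes. PIM1, a survival kinase, was lower by −1.53, and the scaffold TNS1 by −0.96, while the acetyltransferase KAT2B was higher by 1.73 and EIF2AK1, the haem-regulated inhibitor of translation, by 0.86. The SD over the foxes was 0.5 or more in 16 of the 35 (18.3% of all genes), and fox 2 was highest in 14. Over all probe sets fox 2 was highest in 20.9%, and the share over genes is not given here. The widest over foxes 1 to 8 were HAGH, a glyoxalase, with an SD of 1.39, the adiponectin receptor ADIPOR1 with 1.22 and the ubiquitin ligase MKRN1 with 1.17. The list's mean level ran from 8.14 in fox 1 to 9.16 in fox 2, with 8.39 on the control. In 15 of the 35, KAT2B and EIF2AK1 among them, the fox mean was not above the 95th percentile of the reporter controls.

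Partner and related regulators had 14 of 23 measured genes (60.9%) lower on the control, 0 higher and 9 not called, where 44.6% of all genes were lower and 18.5% higher. Their median was −0.80 against −0.53 over all genes. NFE2, a globin gene activator, was lower by −1.60, STAT5A, a signal carrier below the erythropoietin receptor, by −1.56, FOXO3 by −1.30 and E2F4 by −0.99. For NFE2 and FOXO3 neither fox mean nor control value was above the 95th percentile of the reporter controls. In this list 10 of 23 fox means and 9 control values were not above it, so low signal limits its share. The widest over foxes 1 to 8 were STAT5B (SD 0.60), JAK2 (0.54) and NFIA (0.53). Most of these factors also act in white cells. On the control, 5 of 9 neutrophil markers (55.6%), 4 of 7 monocyte markers (57.1%), 8 of 15 T and NK cell markers (53.3%) and 6 of 7 B and plasma cell markers (85.7%) were called lower, beside 44.6% of all genes, and 1 marker of each of the last 2 lists was higher. The first 3 shares are not far from that of all genes. Fox means were not above the 95th percentile of the reporter controls for 2, 2, 7 and 5 markers of these lists, in that order. For control values it was 4, 2, 5 and 5 markers. Low signal thus limits these lists, that of B and plasma cells most. Their mean levels in foxes and on the control were 8.94 to 11.46 and 7.08 for neutrophils, 9.14 to 10.69 and 8.53 for monocytes, 7.78 to 8.70 and 7.78 for T and NK cells, and 7.18 to 7.55 and 6.88 for B and plasma cells. GATA1 and TAL1 also act in platelet precursors and GATA1 in eosinophils and mast cells. Platelet and megakaryocyte markers averaged 7.49 to 8.66 in foxes and 6.57 on the control (6 of 11 lower, or 54.5%, and 1 higher), and eosinophil, basophil and mast cell markers 7.55 to 8.0 against 7.23 (7 of 10 lower, and 1 higher). In the last 2 lists 6 of 11 and 6 of 10 fox means were not above the 95th percentile of the reporter controls. The part of these cells in the regulator values was not tested.

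For BNIP3L, the related list is mitophagy and autophagy, where 6 of 18 measured genes (33.3%) were lower on the control, 4 (22.2%) higher and 8 not called, with a median of −0.17. For this list and the next 3, the shares over all genes are 44.6% lower and 18.5% higher, with a median of −0.53. The mitophagy receptor FUNDC1 was higher by 3.5 and the conjugation gene ATG12 by 2.32, while ATG7, which activates such conjugation, was lower by −1.92 and the starting kinase ULK1 by −1.26. The widest over foxes 1 to 8 were GABARAP (SD 1.01), GABARAPL2 (0.93) and MAP1LC3B (0.76), 3 proteins that coat the autophagosome. For ULK1, and below for CAB39L, STRADA, CA12 and CA5B, neither fox mean nor control value was above the 95th percentile of the reporter controls. For FUNDC1, and below for PGAM2, the fox mean was not. For STRADB, 2 of 4 genes of the LKB1 complex were lower, CAB39L by −0.95 and STRADA by −0.86, and 0 higher, with a median of −0.70, and CAB39 had the largest SD over foxes 1 to 8, 0.28. For CA1 and CA2, 6 of 13 other carbonic anhydrases (46.2%) were lower and 2 (15.4%) higher, with a median of −0.55, among them CA6 by −1.25, CA12 by −1.14 and CA5B by −0.92, and membrane-bound CA4 varied most (SD 0.75 over foxes 1 to 8). For BPGM, 1 of 15 glycolysis genes (6.67%) was lower and 2 (13.3%) higher, with a median of 1.13: the hexokinase HK1 by −0.87, PGAM2 of muscle by 2.76 and PFKM of muscle by 2.37, and PGK1 (SD 0.90), LDHA (0.84) and TPI1 (0.75) had the largest SDs over foxes 1 to 8.

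Haem and membrane genes are known targets of these regulators. Of 9 measured haem synthesis genes 3 (33.3%) were lower on the control and 2 (22.2%) higher, beside 44.6% and 18.5% of all genes. The mitochondrial iron importer SLC25A37 was lower by −2.33, and UROD and ALAD, which work in all tissues that make haem, were higher by 2.85 and 1.23. Ferrochelatase, FECH, had an SD of 1.10 over foxes 1 to 8. Fox means not above the 95th percentile of the reporter controls numbered 2 of 9 here and 8 of 16 in the membrane list that follows. Of 16 membrane and skeleton genes 11 (68.8%) were lower and 2 (12.5%) higher, with GYPC at −1.43, DMTN at −1.19 and TMOD1, which caps actin filaments, at 2.05, and EPB41 varied most (SD 0.97 over foxes 1 to 8). Of 11 listed globins 1 was read by a probe set with a single symbol: HBE1 ran from 9.06 in fox 3 to 11.34 in fox 2, against 8.81 on the control, a difference of −1.47 that was not called (limma adjusted p = 0.0567).

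The genes most like each member over foxes 1 to 8 were sought among 7324 genes with a fox mean above that of the median gene. With 8 points and so many genes high values are common, so these are descriptions. The closest 3 were BMF, POT1 and SMO for STRADB (r 0.98 to 0.99), TMEM132D, METTL3 and MADCAM1 for BNIP3L (0.98), and RAB7A, MCPH1 and CDKN2AIP for TRIM58 (0.96 to 0.98). KLF1 was closest to KHDC3L, CHST12 and GIMAP2 (0.97 to 0.98) and GATA1 to COL3A1, CATSPERE and PLEKHG6 (0.97 to 0.98). HEMGN was closest to EXOC6, MEF2B and IZUMO2 (0.91 to 0.95), TAL1 to MEIS3, PLA2G15 and SHKBP1 (0.89 to 0.97), CA1 to LUC7L2, FZD6 and ING2 (0.96 to 0.97), CA2 to PDZD7, RNF213 and HCRT (0.90), and BPGM to OR10T2, LRGUK and SLC34A1 (0.92 to 0.95).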

How the data were processed

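Per the submitters' processing notes, the authors used Affymetrix Expression Console with RMA, and the deposited values are log2 signals. RMA corrects background, equalises the distributions of arrays and summarises probes per probe set, which compresses differences at low signal. The deposited arrays still differed in median and in spread over probe sets, and the part of this in the control differences was not tested. The sources used here give neither versions nor whether all 12 arrays went through RMA as 1 set. Of 43035 probe sets, 111 Affymetrix and 64 reporter controls were left out of the tests. Fox RNA can pair less well with dog probes. Whether that differs from the control array, probe by probe, was not tested.

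The control was compared with the 11 foxes by limma 3.58.1 (lmFit, eBayes) in R 4.3.3, with Benjamini-Hochberg adjustment over 42860 probe sets and a threshold of 0.05, and was tested on simulated data. The spread comes from the foxes alone, and the single control is taken to share it. Each gene was read by its brightest single-symbol probe set (mean of all arrays). Correlations used two-sided exact permutation over 8 foxes. The number of arrays limits the precision.

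Members, lists and tests were chosen with earlier results of these data known. All member probe sets are named. For each list up to 4 called genes with the largest difference and up to 3 with the largest SD over foxes 1 to 8 were eligible, and for likeness the 3 highest correlations. ALAS2, the counts by fox 2 and by foxes 9, 10 and 11, and leaving out fox 2 were chosen after seeing the data. The planned promoter motif search was not done. Alternatives were a filter on low values, quantile normalization again, centring, limma trend and robust settings, a minimum difference, other measures of spread, Spearman correlation, averaging a gene's probe sets and each fox left out.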

Additional observations from a re-analysis of the deposited data

How the results depend on the processing

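No paired analysis was possible because the labels give no replicate numbers shared between groups and the control is 1 array. Of 380 alternative values of single probe set differences 345 kept direction and call, 6 lost the call, 18 gained it and 11 changed sign, all 11 in probe sets that were not called. STRADB probe set 1 went from 0.01 to −0.71 after quantile normalization and to −0.17 to 0.24 with each fox left out, STRADB probe set 2 from −0.24 to 0.03 after centring, and BPGM probe set 2 from 0.02 to −0.04 to 0.11 with each fox left out. Member probe sets called lower numbered 10, and 7 to 14 over the alternatives (10 to 11 with each fox left out). Those called higher numbered 3, 4 after centring or quantile normalization, and 0 with the filter on low values, which removes HEMGN and the called CA2 probe sets. The shares of all probe sets called under the alternatives are not given here, so changes in these counts are no result about the members. Member probe sets among the 10% of all with the largest SD numbered 5, and 8 with foxes 9, 10 and 11 left out. Pairs passing numbered 0, 2 with a gene's probe sets averaged, and 0 to 1 with each fox left out: 1 without fox 1, fox 3 or fox 6. Members passing against ALAS2 numbered 2, 1 by Spearman, and 0 to 3 with each fox left out: 0 without fox 1 or fox 2, and 1 without fox 3. The cause of these changes was not tested. Low signal limits HEMGN, TAL1, CA2, BPGM and probe sets 2 and 3 of GATA1 and of CA1 most in the foxes. It also limits probe set 4 of STRADB and probe sets 2, 3 and 4 of TRIM58.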
